A study of Homo sapiens with 3 samples.

Results

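The 2 libraries of a TRAF7 knockdown were compared with each other, gene by gene, with the control library as a reference. All 3 libraries came from cells labelled KG1a, a line from an acute myeloid leukaemia. The cells had been infected with lentivirus. The control library (shCtrl, genotype given as wild type) received a control short hairpin RNA (shRNA), an RNA that directs the degradation of transcripts matching it. The 2 others (shTRAF7-1 and shTRAF7-2, here knockdown 1 and knockdown 2) received an shRNA against TRAF7. The labels number these 2 without stating whether the hairpins or the cultures were different, and give no time after infection. Transcript levels are in FPKM, reads scaled for exon length and library size. Members were the genes averaging 1 FPKM or more across the libraries, 12640 of 58735 genes in all.

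The marker genes went partly against the labelled line. KG1a cells are known for the surface antigen CD34, yet CD34 had 0, 1 and 10 reads in the order control, knockdown 1, knockdown 2, which is kept below. CD44, an adhesion receptor, had 0, 2 and 7 reads, and ERG, a progenitor transcription factor, 0, 1 and 2. Erythroid genes were high in the same libraries: GATA1, the erythroid master regulator, had 128, 104 and 116 FPKM, and the embryonic globin HBZ had 65.7, 109 and 133 FPKM. Of the other fixed markers of the line, the leukocyte phosphatase PTPRC had 9.54, 5.60 and 6.53 FPKM, the sialoglycoprotein SPN 46.2, 45.3 and 32.9 FPKM, and the transcription factors MYB 35.3, 29.2 and 37.8 FPKM, RUNX1 3.38, 2.97 and 3.27 FPKM and LYL1 57.2, 52.9 and 56.2 FPKM. The cells are therefore called by their label only.

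TRAF7 is a RING-type E3 ubiquitin ligase, a protein that attaches ubiquitin to others, and was named for its likeness to the adaptors of tumour necrosis factor receptors. A knockdown by shRNA can differ between infections in how much target is left and in transcripts other than the target. Comparing 2 knockdown libraries with each other, beside a control, shows which transcripts had one level in both and which did not. With 1 library a side no test was possible, so sizes alone are given. Intervals on levels are exact 95% Poisson intervals and those on folds are exact 95% binomial intervals from the reads of both libraries. Both cover counting error only, not the spread between cultures. Differences due to hairpin, culture and library preparation cannot be told apart here.

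Depth was similar, with 16014485 assigned reads for the control, 16221721 for knockdown 1 and 16254461 for knockdown 2. Reads in sense intronic transcripts stood at 553.2, 448.5 and 475.5 RPM (reads scaled to library size), and reads in small nucleolar RNA (snoRNA) genes at 80.5, 94.7 and 70.3 RPM. The 22 listed stromal and epithelial markers summed to 175.0, 190.4 and 183.8 FPKM, with 3 at 0 in every library (CDH5, KRT5 and KRT14). The 41 erythroid and megakaryocyte markers summed to 1012, 1012 and 1074 FPKM, with 4 at 0, among them the platelet genes PF4 and GP9. ITGA2B, another platelet gene, had 2.03, 1.13 and 2.07 FPKM. The 40 myeloid markers summed to 238.7, 250.9 and 291.5 FPKM, with 11 at 0, among them the granule genes ELANE and CTSG. One abundant member, ANXA1, made up much of that sum (116, 145 and 182 FPKM), and over the 11 measured members the median difference from the control was −0.42 in knockdown 1 and −0.17 in knockdown 2, with the control highest in 8. Of the other myeloid members, LYZ had 8.06, 6.05 and 3.97 FPKM and AZU1 5.02, 1.30 and 2.24 FPKM. The 33 lymphoid markers summed to 18.1, 15.2 and 18.5 FPKM, with 11 at 0, among them MS4A1 and CD8A. The lymphoid member CD3D had 6.63, 4.36 and 5.69 FPKM. The part of all these markers in the differences between the knockdown libraries was not tested.

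TRAF7 itself was at nearly the same low level in both knockdown libraries. The gene (ENSG00000131653, chromosome 16, positions 2155698 to 2178129, plus strand, GENCODE release 29 on GRCh38) had 46.5 FPKM (44.998 to 48.1) in the control, against 15.6 (14.7 to 16.6) in knockdown 1 and 18.3 (17.4 to 19.3) in knockdown 2, from 3526, 1091 and 1338 reads. Knockdown 2 retained 1.17-fold (1.08 to 1.27) the level of knockdown 1, and both were well below the control, at 33.6% and 39.4% of it. The other genes of the series title were less than 1.5-fold apart between the knockdowns, from few reads. TWIST1, a helix-loop-helix regulator of mesenchymal genes, had 2.86 FPKM in the control against 1.58 in knockdown 1 and 1.63 in knockdown 2, a ratio of knockdown 1 to knockdown 2 of 0.967-fold (0.645 to 1.45). P2RX1, an ATP-gated cation channel, had 3.83 FPKM in the control against 1.10 in knockdown 1 and 0.821 in knockdown 2, a ratio of 1.34-fold (0.922 to 1.96). Both intervals include equal levels but are wide. The reads in knockdown 1 and knockdown 2 were 50 and 54 for TWIST1 and 68 and 53 for P2RX1. The TRAF family adaptors TRAF4, TRAF5 and TRAF3 had 27.5, 31.8 and 26.5 FPKM, 1.83, 1.84 and 2.31 FPKM and 9.63, 11.3 and 9.70 FPKM, and 0 of 6 measured family members were 1.5-fold apart.

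Most genes had like levels in the 2 knockdown libraries. The difference of log2(FPKM + 1), knockdown 1 minus knockdown 2, had a median of 0.03 and an interquartile range of −0.15 to 0.18, and 9705 genes (76.8%) lay within 1.25-fold. In direction alone, 6914 genes were higher in knockdown 1 and 5721 lower on the deposited scaling. This count was not redone on another scaling. A gene was called apart at 1.5-fold or more on that scale, which understates the fold of low genes. By this rule 370 genes (2.93%) were higher in knockdown 1 and 525 (4.15%) were lower, 895 (7.08%) in all. With a pseudocount of 5 FPKM in place of 1 the higher genes were the more numerous, 122 against 99. With scaling to all assigned reads 311 genes were called higher and 610 lower. At 2-fold the numbers were 116 (0.918%) and 142 (1.12%). The calls were frequent among genes with few reads: 37.2% of 1068 genes with a mean under 20 reads were called, 11.7% of 1543 genes with 20 to 100 reads, 3.52% of 6338 genes with 100 to 1000, and 2.55% of 3691 genes with 1000 or more. Among 9897 protein-coding genes 3.37% were called, 108 higher and 226 lower in knockdown 1. Several short or noncoding classes were called more often: 37 of 99 snoRNA genes were higher and 9 lower, 33 and 30 of 122 microRNA genes, and 19 and 52 of 448 long intergenic noncoding genes. Others were not, with 3.75% of 80 processed transcripts and 1.25% of 160 transcribed unprocessed pseudogenes called.

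**Figure D1:**
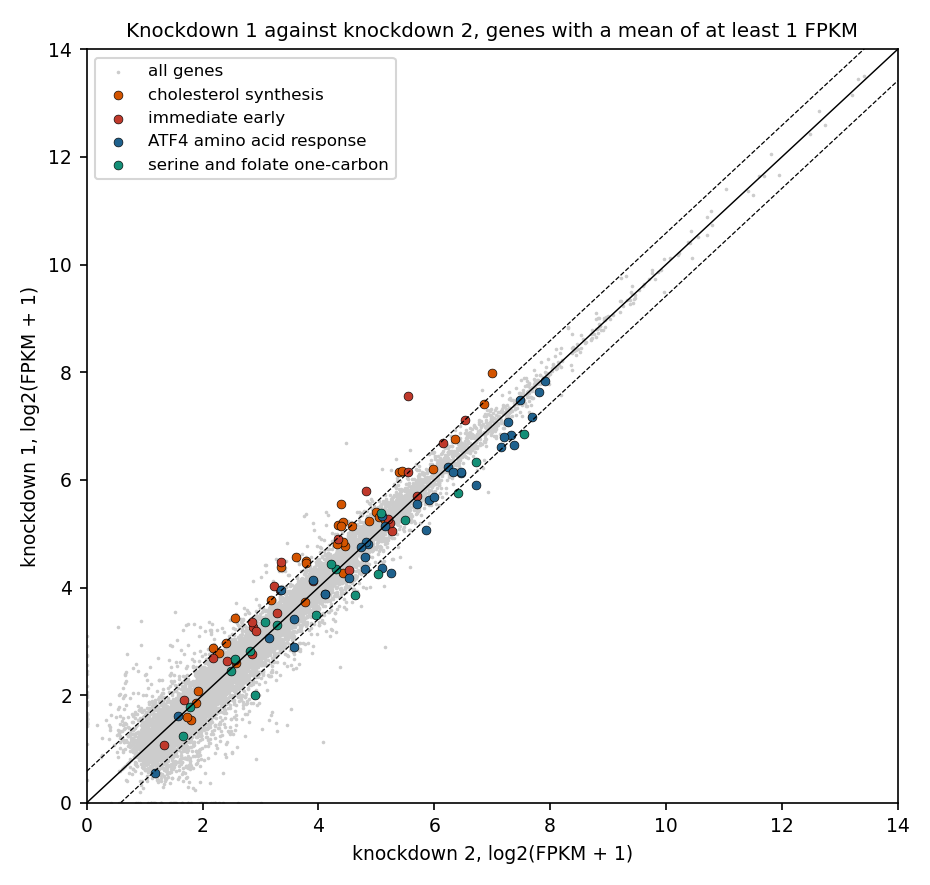
Level of each of 12640 genes in knockdown 1 (vertical axis) against knockdown 2 (horizontal axis), both as log2(FPKM + 1). Grey points are all genes, coloured points are members of 4 gene lists, the solid line marks equal levels and the dashed lines 1.5-fold. Most genes lie within the dashed lines, sterol and immediate early genes tend to lie above the solid line, and ATF4 and serine genes below it.

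On the deposited scaling, knockdown 1 stood farther from the control than knockdown 2 did. The median size of the difference on the log2(FPKM + 1) scale was 0.24 between knockdown 1 and the control, 0.17 between knockdown 2 and the control, and 0.17 between the knockdown libraries. Against the control, 758 genes (6%) were at least 1.5-fold higher and 854 (6.76%) lower in knockdown 1, while 358 (2.83%) were higher and 474 (3.75%) lower in knockdown 2. At 2-fold the numbers were 132 (1.04%) and 238 (1.88%) in knockdown 1 and 87 (0.688%) and 142 (1.12%) in knockdown 2. With quantile normalization and the 1.5-fold call, 542 were higher and 824 lower in knockdown 1, and 347 and 469 in knockdown 2. The counts against the control were not redone with scaling to all assigned reads. These comparisons share the control library. For abundant protein-coding genes that differed between the knockdowns, the control was usually nearer to knockdown 2. Of 6418 protein-coding genes averaging 5 FPKM or more, 84 (1.31%) were called higher in knockdown 1, and the control was nearer to knockdown 2 in 76 of them (90.5%). Another 94 (1.46%) were called lower, and the control was nearer to knockdown 2 in 79 (84%). Among all called genes, many of them with few reads, the shares were 58.1% of those higher and 73.7% of those lower, and with a 2-fold call the first was 46.6%. With scaling to all assigned reads the shares were 50.8% and 79.0%.

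**Figure D2:**
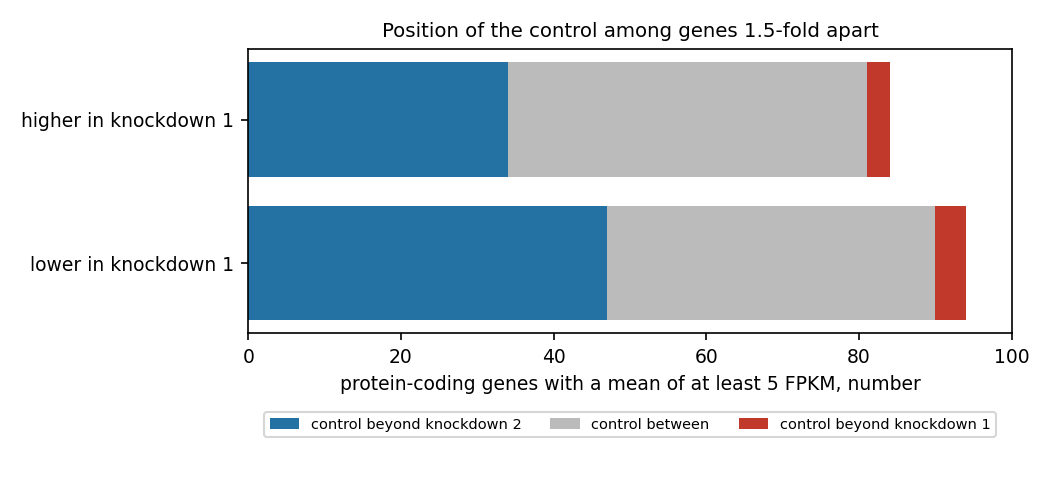
Number of protein-coding genes averaging 5 FPKM or more that were at least 1.5-fold apart between the knockdown libraries, split by the position of the control. Of 84 genes higher in knockdown 1, the control lay beyond knockdown 2 in 34, between in 47 and beyond knockdown 1 in 3; of 94 lower genes, the numbers were 47, 43 and 4.

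Among protein-coding genes averaging 5 FPKM or more, the one farthest above knockdown 2 in knockdown 1 was EGR1, a zinc finger transcription factor made within minutes of growth factor or stress signals. It had 75.1 FPKM (72.8 to 77.5) in the control, against 187 (183 to 191) in knockdown 1 and 45.5 (43.6 to 47.4) in knockdown 2, from 3978, 9129 and 2320 reads. Knockdown 1 was 4.11-fold (3.93 to 4.30) above knockdown 2, and the control lay between them. EGR1 (ENSG00000120738, chromosome 5, positions 138465490 to 138469315, plus strand) was at least 1.5-fold above the control in knockdown 1 and at least 1.5-fold below it in knockdown 2. Altogether 20 genes had that pattern, 15 of them with a mean under 20 reads, and a further 11 had the reverse pattern, 10 of them under 20 reads. The only other protein-coding gene of at least 5 FPKM among them was KISS1R, the kisspeptin receptor, with 13.01 FPKM in the control against 20.3 in knockdown 1 and 7.54 in knockdown 2. NAB2, a corepressor that binds EGR proteins and is itself induced with them, had 9.52 FPKM in the control against 22.2 in knockdown 1 and 8.62 in knockdown 2, a 2.57-fold (2.30 to 2.89) difference between the knockdown libraries.

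Most other immediate early genes, which are transcribed first after a signal and need no new protein, were on the same side. Of 33 listed, EGR1 among them, 26 were measured, 20 were higher in knockdown 1 and 6 lower. With EGR1 counted, 6 were at least 1.5-fold higher and 0 lower, against 2.93% and 4.15% of all genes. The list's median difference was 0.25 against 0.03 for all genes. ZFP36, which destabilises AU-rich messenger RNAs, had 9.99 FPKM in the control against 21.1 in knockdown 1 and 9.18 in knockdown 2. JUNB, a component of the AP-1 transcription factor, had 29.5 FPKM in the control against 54.3 in knockdown 1 and 27.3 in knockdown 2, and FOS, another, had 10.9 FPKM in the control against 15.4 in knockdown 1 and 8.43 in knockdown 2. In all of these the control lay nearer to knockdown 2 than to knockdown 1. JUND had 94.5, 137 and 91.8 FPKM and IER2 45.02, 70.1 and 45.9 FPKM. Some members did not share the pattern: JUN had 28.8, 32.1 and 37.5 FPKM, ATF3 15.8, 13.7 and 16.4 FPKM and MYC 31.5, 35.6 and 36.5 FPKM. CD69, an early activation antigen of leukocytes listed with NF-kB targets, had 15.8 FPKM in the control against 32.4 in knockdown 1 and 14.1 in knockdown 2 and was 2.30-fold (2.09 to 2.53) higher in knockdown 1. It was the only one of 22 measured NF-kB targets to be called, against 7.08% of all genes called in either direction. Among genes induced by ERK signalling, SPRY4, a feedback inhibitor of that pathway, had 2.57 FPKM in the control against 5.41 in knockdown 1 and 2.54 in knockdown 2. It was the only one of 12 measured to be called, against the same 7.08%.

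Promoter sequences are shown for EGR1 and JUND because, after the values were seen, theirs were found to hold the element searched for. RefSeq sequences (GRCh38.p14) covered the 250 bases before the start of 27305 genes, both strands were searched, and a match is a description of letters only. By symbol, sequences were found for 19 of 26 measured immediate early genes, 27 of 34 sterol genes, 22 of 25 chaperones and 33 of 36 ATF4 response genes. Overlap between different elements was not examined. The CArG box, the element of serum response factor, was present in 1.44% of all promoters and in 2 of 19 promoters of immediate early genes, EGR1 and SRF. The CRE palindrome TGACGTCA, the element of CREB and ATF proteins, was present in 2.03% of all and in 4 of those 19 (JUND, MAFF, PPP1R15A and ZFP36L1). The EGR1 window (chr5:138465229-138465478, plus strand) held 2 matches, which lay 74 to 105 bases before the start, and the JUND window (chr19:18281623-18281872, minus strand) held 1, 193 to 200 bases before it. Capitals mark the matches, each sequence running 5′ to 3′ on the strand of its gene.
EGR1: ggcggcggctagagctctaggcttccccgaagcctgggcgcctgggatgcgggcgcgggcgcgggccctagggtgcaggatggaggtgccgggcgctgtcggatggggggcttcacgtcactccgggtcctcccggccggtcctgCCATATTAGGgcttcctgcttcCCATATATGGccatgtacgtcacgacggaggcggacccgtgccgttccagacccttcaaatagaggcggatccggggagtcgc
JUND: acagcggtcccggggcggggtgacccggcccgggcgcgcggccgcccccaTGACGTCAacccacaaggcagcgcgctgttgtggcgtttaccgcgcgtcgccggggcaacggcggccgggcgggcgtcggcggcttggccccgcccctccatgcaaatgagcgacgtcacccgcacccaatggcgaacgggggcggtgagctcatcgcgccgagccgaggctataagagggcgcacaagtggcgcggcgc

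Genes of sterol and fatty acid synthesis formed the list with the highest median difference. Cells make cholesterol from acetyl-CoA through the mevalonate pathway. The transcription factors SREBF1 and SREBF2 switch its enzymes on when membrane sterol is low, and INSIG proteins hold them back when it is high. All 34 listed genes were measured, 29 were higher in knockdown 1 and 5 lower, and 14 were at least 1.5-fold higher and 0 lower, against 2.93% and 4.15% of all genes. The median difference between the knockdown libraries was 0.52. Against the control the list's median was 0.35 in knockdown 1 and −0.15 in knockdown 2. In 20 of the 34 genes knockdown 1 was highest, the control in between and knockdown 2 lowest.

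INSIG1 (ENSG00000186480, chromosome 7, positions 155297776 to 155310235, plus strand), the sterol-dependent anchor of the SREBP pathway and itself its target, had 26.2 FPKM (24.9 to 27.5) in the control, against 45.8 (44.1 to 47.6) in knockdown 1 and 19.9 (18.8 to 21.1) in knockdown 2, and knockdown 1 was 2.30-fold (2.15 to 2.46) above knockdown 2. The control lay between them.

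Along the pathway, HMGCS1, which makes HMG-CoA, had 21.1, 34.6 and 19.2 FPKM, and squalene epoxidase, SQLE, had 25.01, 34.2 and 19.98 FPKM. Both stood higher in knockdown 1 than in both other libraries. In the later steps, LSS, which closes the sterol ring, had 26.6, 36.3 and 20.5 FPKM, MSMO1, a sterol demethylase, 5.47, 9.80 and 4.87 FPKM, and DHCR7, the enzyme that yields cholesterol, 42.4, 70.6 and 42.3 FPKM. FASN, the fatty acid synthase, was the most abundant of the 14 by FPKM, with 114 FPKM (112 to 116) in the control, against 252 (249.5 to 255) in knockdown 1 and 126 (125 to 128) in knockdown 2. Its difference between the knockdown libraries was 1.99-fold (1.96 to 2.03), and its control and knockdown 2 levels were close to each other. The transcript of the regulator SREBF2 was not called (44.1, 37.3 and 34.5 FPKM), and INSIG2 was lower in knockdown 1 (1.81, 1.90 and 2.48 FPKM). The sterol element TCACNCCAC was present in 1.09% of all promoter windows and in 1 of the 27 of this list with a sequence, that of SREBF2.

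**Figure D3:**
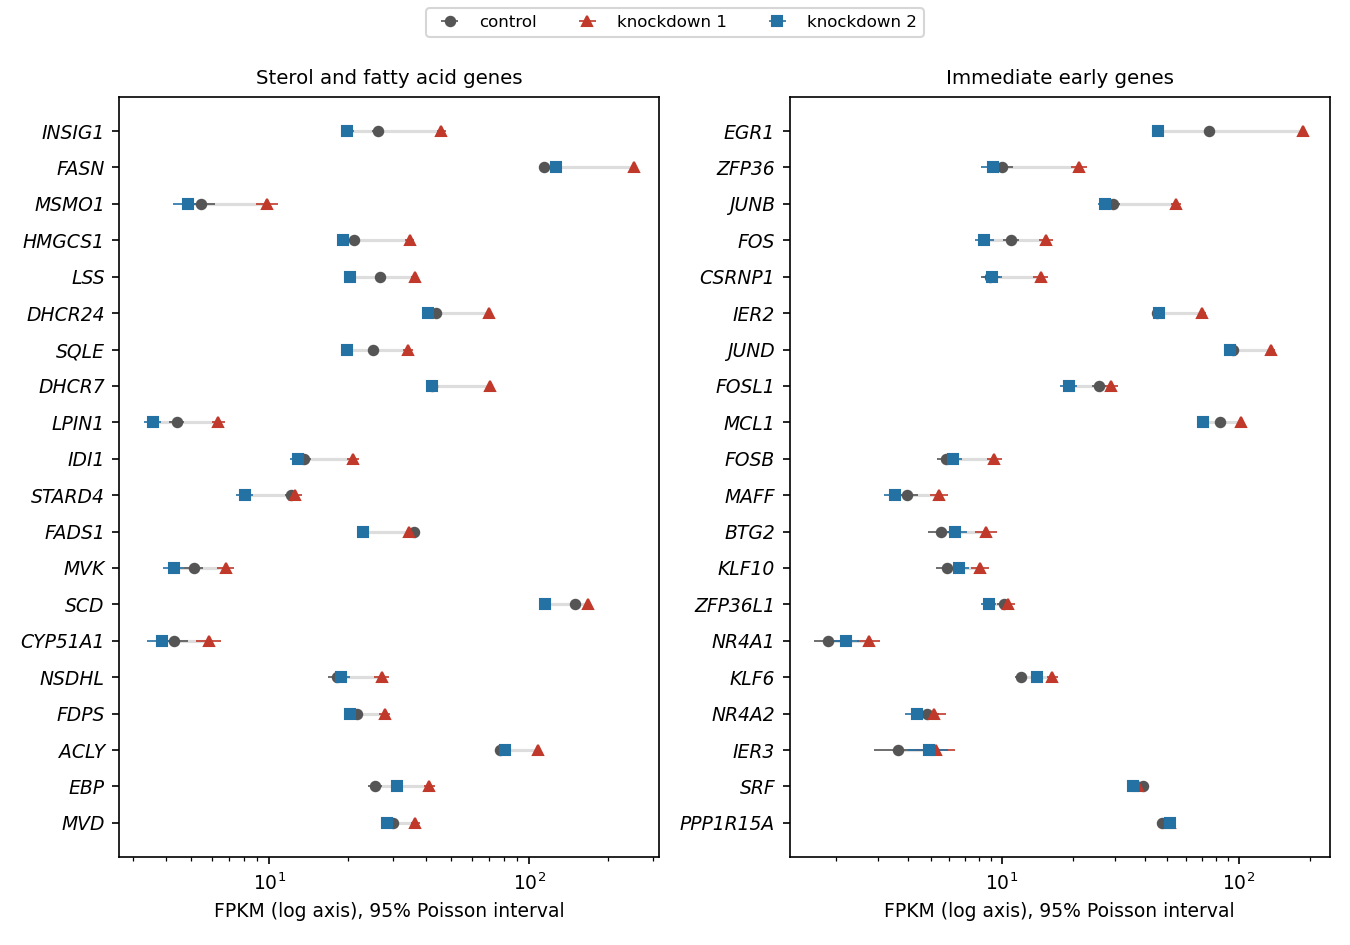
FPKM (log axis) with exact 95% Poisson intervals in the control (grey circles), knockdown 1 (red triangles) and knockdown 2 (blue squares) for 20 members with a high difference of the sterol and fatty acid list (left) and of the immediate early list (right). For most genes the red triangle stands to the right and the circle and square lie together, as for FASN at 252 FPKM against 114 and 126.

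Cytosolic chaperones were likewise higher in knockdown 1. These proteins refold or hold unfolded chains and are switched on by heat shock factor HSF1. Of 26 listed, 25 were measured, 23 were higher in knockdown 1, 3 of them at least 1.5-fold, and 0 were called lower, against 2.93% and 4.15% of all genes. The median difference was 0.31. On the deposited scaling, both knockdown libraries had higher medians than the control, at 0.60 in knockdown 1 and 0.26 in knockdown 2, so here knockdown 2 lay between. This was not particular to chaperones. In the same order, G1/S and DNA replication genes had 0.52 and 0.35 and proteasome genes 0.47 and 0.37, while chromatin regulators had 0.05 and −0.08. HSPA1A, an inducible HSP70, had 32.1 FPKM in the control against 71.4 in knockdown 1 and 37.1 in knockdown 2, and its near-identical copy HSPA1B had 24.6 FPKM in the control against 47.9 in knockdown 1 and 27.7 in knockdown 2. Reads of these copies may have been split between them. HSPH1, a nucleotide exchange factor of HSP70, had 9.04 FPKM in the control against 20.6 in knockdown 1 and 11.6 in knockdown 2, a difference of 1.78-fold (1.67 to 1.89) between the knockdown libraries. The constitutive HSPA8 had 239.7, 459 and 317 FPKM and HSP90AA1 had 215, 454 and 316 FPKM. Both had their lowest level in the control and their highest in knockdown 1, and neither was called.

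The heat shock element, searched as GAA, TTC and GAA with 2 free bases after each of the first ones, was present in 0.557% of all promoter windows and in 6 of the 22 chaperone windows with a sequence (CHORDC1, DNAJB6, HSP90AA1, HSP90AB1, HSPA8 and SERPINH1). HSPA8 (chr11:123062137-123062386, minus strand) and HSP90AA1 (chr14:102087045-102087294, minus strand) are shown as abundant genes that hold a match, and they were chosen after their values were seen. HSPA1A had no match in its window. Capitals mark the matches, on either strand.
HSPA8: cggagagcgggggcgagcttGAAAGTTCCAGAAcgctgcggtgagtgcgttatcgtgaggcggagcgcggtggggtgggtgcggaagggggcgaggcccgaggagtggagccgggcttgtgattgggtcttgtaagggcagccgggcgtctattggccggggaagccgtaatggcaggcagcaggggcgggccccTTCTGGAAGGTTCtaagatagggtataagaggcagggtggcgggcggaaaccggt
HSP90AA1: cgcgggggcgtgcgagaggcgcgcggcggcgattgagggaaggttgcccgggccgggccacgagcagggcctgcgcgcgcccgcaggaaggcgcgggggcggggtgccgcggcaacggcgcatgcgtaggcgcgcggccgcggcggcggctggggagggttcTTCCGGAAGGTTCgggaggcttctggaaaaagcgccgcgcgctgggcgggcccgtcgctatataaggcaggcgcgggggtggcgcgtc

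Growth-related lists had more members higher than lower in knockdown 1, by small steps, and the shares called were near the 2.93% of all genes called higher. Of 39 measured genes of ribosome biogenesis and MYC targets, 33 were higher in knockdown 1, 2 of them called, and the median difference was 0.34. UTP20, a component of the small-subunit processome, had 5.08, 9.63 and 5.37 FPKM, and RRP9, a snoRNA-binding protein, had 28.3, 47.8 and 29.3 FPKM. For both, knockdown 2 was close to the control. Of 48 measured genes of G1/S and DNA replication, 41 were higher in knockdown 1, with 2 called higher, against 2.93% of all genes, and a median difference of 0.16. UHRF1, which carries DNA methylation through replication, had 13.9, 31.1 and 17.9 FPKM, and POLD1, a replicative polymerase subunit, had 39.9, 59.3 and 38.7 FPKM. Of 55 measured splicing factors 49 were higher, with a median difference of 0.16. SRSF1 had 18.02, 30.1 and 18.8 FPKM and was the only one called higher, and U2AF1, which binds the 3′ splice site and has a near-identical copy in the annotation, had 4.73, 0.838 and 1.94 FPKM and was the only one called lower. The 48 measured genes of G2/M and mitosis were evenly divided, 24 higher and 24 lower, with a median of 0.00 and 0 called. Of 58 cytosolic ribosomal protein genes 18 were higher and 40 lower, the median was −0.03 and 0 were called.

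Among 35 measured replication-dependent histone genes of 63 listed, 28 were higher in knockdown 1, 5 were called higher and 0 lower (2.93% and 4.15% of all genes), and the median difference was 0.19. HIST1H3F had 4.61, 5.47 and 1.35 FPKM from 32, 35 and 9 reads. HIST1H4J had 1.59, 2.58 and 0.330 FPKM from 10, 15 and 2 reads. Calls were frequent at such depth, at 37.2% of genes with a mean under 20 reads and 11.7% with 20 to 100. Histone genes have near-identical copies, so single values are uncertain. All 13 protein-coding genes of the mitochondrial genome were measured, 10 were higher in knockdown 1 and 0 were called. MT-ND5, a complex I subunit, had 479, 857 and 599.9 FPKM, and MT-ND6, its neighbour on the opposite strand, had 237, 416 and 331 FPKM. Whether counting used strand is not stated, so antisense reads of such partners cannot be told apart.

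IFITM3, an interferon-induced membrane protein, had 57.1, 83.03 and 39.6 FPKM. It was the only one of 21 measured interferon-stimulated genes to be called, against 7.08% of all genes. Its near copy IFITM2 had 44.7, 37.4 and 25.1 FPKM. The list as a whole had a median of −0.08. Further genes of the 15 highest were CALB1, a calcium-binding protein (4.36, 8.66 and 2.89 FPKM), and TRMT61A, a tRNA methyltransferase subunit (14.9, 26.3 and 13.01 FPKM). In 13 of those 15 the control was nearer to knockdown 2, and in 13 knockdown 2 was below the control.

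Of the same protein-coding genes, the one farthest below knockdown 2 in knockdown 1 was HEMGN, hemogen, a nuclear protein of erythroid and progenitor cells. It had 22.9 FPKM (21.4 to 24.4) in the control, against 6.44 (5.65 to 7.31) in knockdown 1 and 34.3 (32.5 to 36.2) in knockdown 2, and knockdown 2 was 5.33-fold (4.64 to 6.14) above knockdown 1. HEMGN (ENSG00000136929, chromosome 9, positions 97926791 to 97944856, minus strand) was thus below the control in knockdown 1 and above it in knockdown 2. S100P, a calcium-binding protein, had 26.6, 1.91 and 7.83 FPKM, and ASS1, which makes argininosuccinate for arginine synthesis, had 21.2, 2.23 and 8.19 FPKM. These were lower than the control in both knockdown libraries and lowest in knockdown 1, with knockdown 2 at 4.11-fold (2.87 to 6.01) and 3.67-fold (2.95 to 4.58) of its level. In the same order of libraries, MLXIPL, a glucose-responsive transcription factor, had 9.32, 1.49 and 4.47 FPKM, and INHBE, an activin subunit, had 17.5, 4.60 and 10.7 FPKM. In others knockdown 2 had about the control level. STAR, the mitochondrial cholesterol carrier, had 17.2, 8.34 and 17.6 FPKM, SH3BGRL2 had 10.1, 4.89 and 10.5 FPKM and SRD5A3, a polyprenol reductase of glycosylation, had 7.9996, 4.19 and 9.11 FPKM. The remaining genes of the 15 lowest included CELF2, an RNA-binding protein (24.1, 8.25 and 17.9 FPKM), RCSD1 (22.02, 7.56 and 17.4 FPKM), FAM129A (9.05, 2.26 and 6.001 FPKM) and the transglutaminase TGM2 (7.86, 2.85 and 6.37 FPKM). MT1A (4.04, 4.71 and 11.2 FPKM) and TUBB2B (4.48, 3.84 and 8.58 FPKM) were high in knockdown 2 alone, and both have near-identical copies. In 13 of these 15 the control was nearer to knockdown 2, and in 14 knockdown 1 was below the control.

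CTH was the lowest member of a wider group. The transcription factor ATF4 is translated when amino acids are short or the endoplasmic reticulum is stressed, and it switches on amino acid synthesis, transport and tRNA charging. Of 39 listed ATF4 response genes, 36 were measured, 9 were higher in knockdown 1 and 27 lower, with 1 called higher and 7 called lower, against 2.93% and 4.15% of all genes. The median difference was −0.23. Against the control the median was −0.27 in knockdown 1 and −0.02 in knockdown 2. CTH (ENSG00000116761, chromosome 1, positions 70411218 to 70439851, plus strand), which makes cysteine from cystathionine, had 32.4 FPKM (30.7 to 34.2) in the control, against 18.3 (16.97 to 19.7) in knockdown 1 and 36.99 (35.1 to 38.9) in knockdown 2, a 2.02-fold (1.84 to 2.21) difference between the knockdown libraries. TRIB3, a pseudokinase that restrains ATF4, had 107, 58.8 and 105 FPKM, and PCK2, the mitochondrial PEP carboxykinase, had 61.2, 32.7 and 57.03 FPKM. In all of them knockdown 1 alone was low.

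Among regulators, ATF5 had 52.6, 19.5 and 33.3 FPKM and CEBPG, a dimer partner of ATF4, had 27.1, 19.3 and 27.1 FPKM. Of the tRNA synthetases, WARS, for tryptophan, had 187, 99.5 and 165 FPKM, SARS, for serine, 136, 97.2 and 141 FPKM, and AARS, for alanine, 179, 144 and 205 FPKM. Of the transporters, SLC1A4 had 13.99, 6.46 and 10.9 FPKM while SLC7A11, the cystine carrier, had 16.8, 16.6 and 13.99 FPKM and SLC1A5 173, 179 and 177 FPKM. CHAC1, which degrades glutathione, was the one member called higher in knockdown 1 (9.81, 14.6 and 9.20 FPKM), and DDIT3, the stress factor CHOP, had 23.6, 27.9 and 27.4 FPKM. The group was therefore not of one direction.

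The composite element of ATF4 with C/EBP proteins, searched as TGATGNAA, was present in 3.89% of all promoter windows and in 9 of the 33 windows of this list with a sequence. The 9 were AARS1, ASNS, ATF3, CEBPG, CHAC1, GARS1, IARS1, JDP2 and SLC1A5. Among them CHAC1 was called higher in knockdown 1, and SLC1A5 had about equal levels in the knockdown libraries. AARS, named AARS1 by RefSeq (chr16:70289507-70289756, minus strand), and CEBPG (chr19:33373863-33374112, plus strand) are shown because they hold one and were lower in knockdown 1. This choice too was made with the values known, and neither gene was called. The match in AARS1 lay 180 to 187 bases before the start on the opposite strand, and that in CEBPG 35 to 42 bases before it.
AARS1: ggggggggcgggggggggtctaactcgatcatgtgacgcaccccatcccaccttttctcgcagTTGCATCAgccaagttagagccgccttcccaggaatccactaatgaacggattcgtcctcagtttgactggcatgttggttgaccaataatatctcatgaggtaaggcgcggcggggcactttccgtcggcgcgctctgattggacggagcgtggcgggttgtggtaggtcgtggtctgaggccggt
CEBPG: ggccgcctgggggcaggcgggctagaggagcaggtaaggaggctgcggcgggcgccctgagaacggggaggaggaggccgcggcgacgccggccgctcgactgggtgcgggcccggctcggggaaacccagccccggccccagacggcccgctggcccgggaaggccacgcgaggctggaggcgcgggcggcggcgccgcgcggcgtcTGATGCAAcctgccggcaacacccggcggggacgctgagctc

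Enzymes of serine synthesis and folate one-carbon metabolism, many of them also ATF4 targets, included 5 of 18 measured genes called lower in knockdown 1 and 0 called higher, against 4.15% and 2.93% of all genes. In the list 6 were higher and 12 lower, and the median was −0.14. The serine pathway runs through PHGDH, PSAT1 and PSPH, which had 61.2, 17.98 and 31.6 FPKM, 184, 115 and 186 FPKM and 21.3, 13.5 and 23.7 FPKM in turn. PHGDH was lowest in knockdown 1 and between in knockdown 2, whereas PSAT1 and PSPH had about the control level in knockdown 2. In mitochondrial folate metabolism, ALDH1L2 had 18.8, 3.03 and 6.51 FPKM, MTHFD2 70.4, 53.3 and 84.5 FPKM and SHMT2 107, 79.8 and 104 FPKM. The cytosolic enzymes that serve nucleotide synthesis did not share this: TYMS, thymidylate synthase, had 27.96, 40.6 and 33.01 FPKM and MTHFD1 had 13.96, 20.6 and 17.6 FPKM, both highest in knockdown 1.

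**Figure D4:**
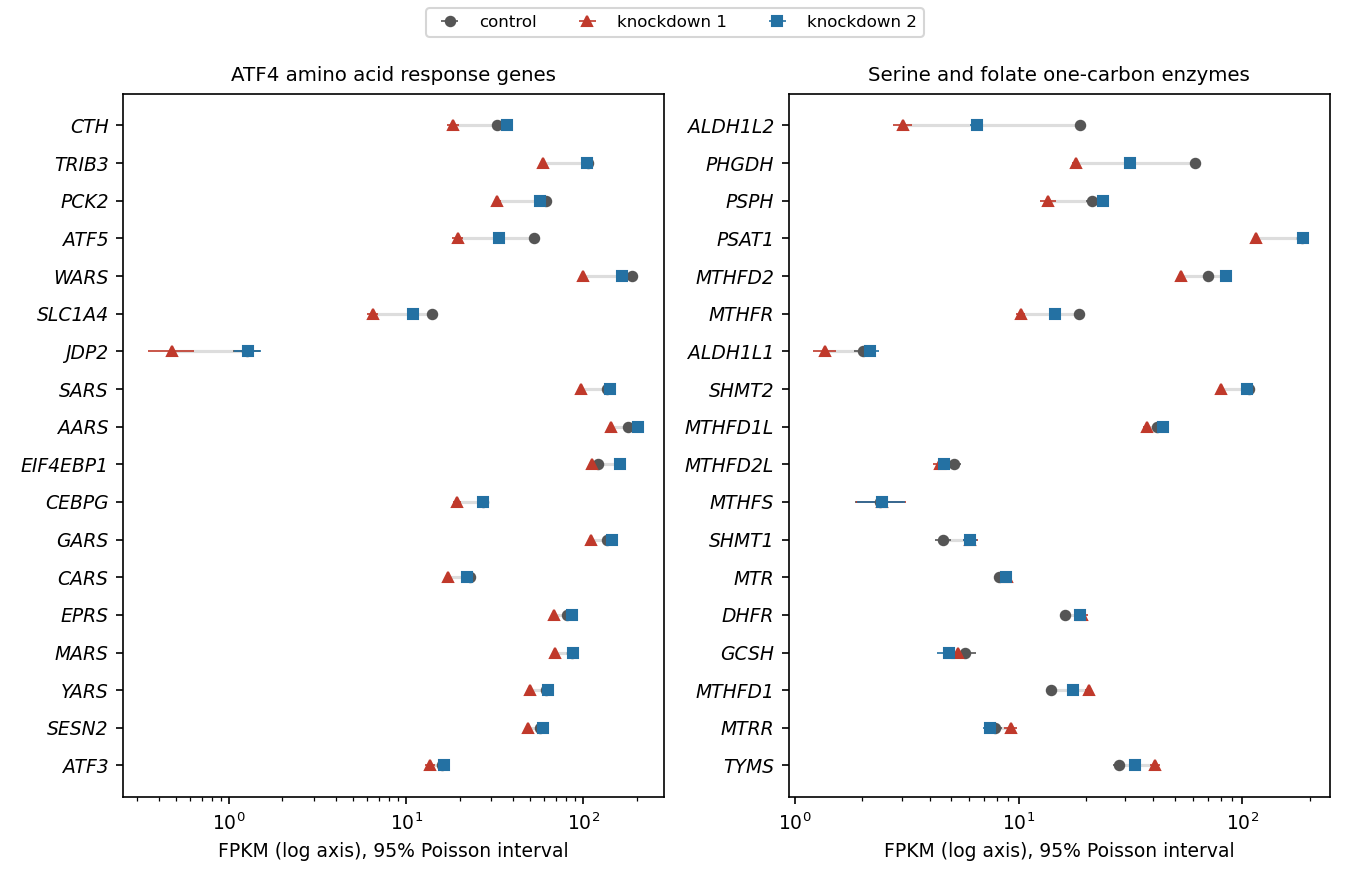
FPKM (log axis) with exact 95% Poisson intervals in the control (grey circles), knockdown 1 (red triangles) and knockdown 2 (blue squares) for 18 ATF4 response genes with the lowest difference (left) and all 18 measured serine and folate genes (right). For the upper genes of both panels the red triangle is lowest, as for CTH at 18.3 FPKM in knockdown 1 against 37.0 in knockdown 2.

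Reticulum chaperones as a list had a median of −0.01, and 1 of 29 was called, against 7.08% of all genes. This was DNAJB9, a target of the unfolded protein response, at 8.68, 4.14 and 7.89 FPKM. XBP1, the factor of that response, had 42.2, 33.95 and 43.5 FPKM.

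Surface and blood cell genes differed in a few members. In such bulk libraries fewer cells of a type and less RNA per cell cannot be told apart. All 10 measured antigen presentation genes of 27 listed were lower in knockdown 1 than in knockdown 2, with 2 called lower, against 4.15% of all genes, and a median of −0.23. PSMB9, an immunoproteasome subunit, had 2.72, 1.51 and 3.48 FPKM, HLA-C 1.13, 0.641 and 1.496 FPKM and TAP1, the peptide transporter, 5.73, 3.42 and 5.21 FPKM. Of 27 measured erythroid and megakaryocyte genes 9 were higher and 18 lower, 3 were called lower, against 4.15% of all genes, and the median was −0.12. Among the called genes were the glycophorins GYPB (6.61, 6.14 and 11.6 FPKM) and GYPE (26.2, 22.2 and 38.1 FPKM), close relatives in sequence between which reads may be shared, while the erythroid factors GATA1 and KLF1 (56.5, 61.7 and 55.8 FPKM) were not called. Of 7 measured globin genes 3 were higher and 4 lower and 0 were called. HBA1 and HBA2, identical in coding sequence, had 22.9, 90.2 and 74.8 FPKM and 18.5, 56.2 and 41.9 FPKM, both far above the control in each knockdown. CD33, a myeloid lectin, had 5.37, 2.66 and 5.48 FPKM. It was the one called of 11 measured myeloid genes, against 7.08% of all genes called in either direction. Fibronectin, FN1, had 2.20, 0.902 and 4.69 FPKM, lowest in knockdown 1 and highest in knockdown 2. It was the one called of 13 measured TWIST and EMT genes, against the same 7.08%. Of 16 measured tetraspanins 12 were lower in knockdown 1 and 2 were called lower, against 4.15% of all genes. They were TSPAN18 (2.60, 0.405 and 1.51 FPKM) and TSPAN33 (1.16, 0.748 and 1.79 FPKM). Their reads were few, 258, 37 and 144 for TSPAN18 and 54, 32 and 80 for TSPAN33. Beside S100P, S100A4 was called lower among 15 S100 and annexin genes (4.22, 2.51 and 5.52 FPKM), against 4.15% of all genes.

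Over the 50 lists, which held 1575 genes, 1267 of them measured, 18 had a median difference of at least 0.1 and 11 of −0.1 or less, while 21 lay between. In 21 lists 0 members were 1.5-fold apart.

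**Figure D5:**
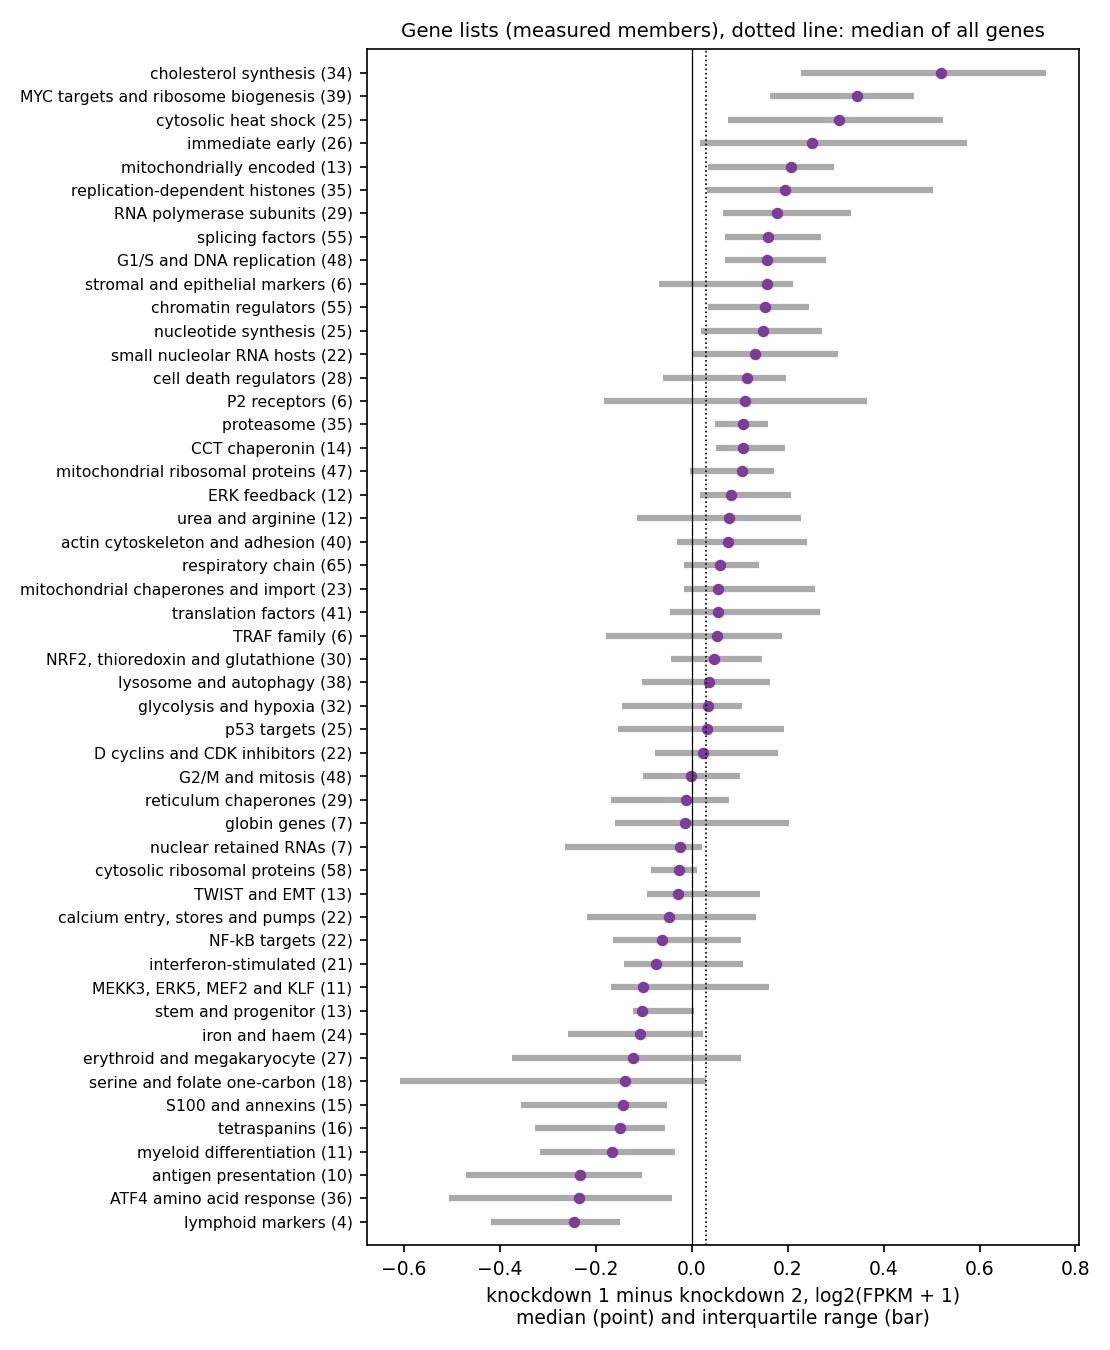
Median (point) and interquartile range (bar) of the difference of log2(FPKM + 1), knockdown 1 minus knockdown 2, over the measured members of each of 50 gene lists, with the number of measured members in brackets. The dotted line is the median of all genes, 0.03; cholesterol synthesis has the highest median, 0.52, and the lymphoid markers, with 4 members, the lowest, −0.25.

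The filter of 1 FPKM set which genes entered. Just below it were INTS6 (0.919, 1.21 and 0.870 FPKM) and the microRNA gene MIR6771 (1.97, 0 and 1.02), and just above it JDP2 (1.254, 0.474 and 1.27 FPKM) and RNU6-833P, a small nuclear RNA gene listed at 0, 3.00 and 0.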

How the data were processed

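RNA from 1 control and 2 TRAF7 knockdown libraries of cells labelled KG1a was sequenced. The authors deposited FPKM values for 58735 genes per library. BWA, Bowtie and hg19 are listed in the submitters' processing notes, without roles or versions. The read counter was not given in the sources used here. Gene identifiers and summed exon lengths were those of GENCODE release 29 (Ensembl 94, GRCh38), whose coordinates are given. FPKM multiplied by exon length gave whole reads for 100.0% of values above 0 (within 0.05), 16014485, 16221721 and 16254461 in all. The deposited values imply divisors of 16884224, 15564009 and 16261681 reads, so they carry a scaling other than the total. Median-of-ratios rescaling left the called genes at 370 and 525, so the values were already at or near that scale.

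Differences are of log2(FPKM + 1), with a call at 1.5-fold, over genes averaging 1 FPKM or more. Medians of lists against the control were taken on the deposited scaling only. With 1 library a side no test was run. The fixed rule for named genes took TRAF7, TWIST1 and P2RX1, the 15 protein-coding genes of at least 5 FPKM with the largest difference in each direction, up to 4 members of each list, and 2 genes on each side of the filter. A few genes taken by it are left unreported. Other list members were named for their place in a pathway, with values known. Members and the 50 lists were chosen with earlier results of these data known. Alternatives were pseudocounts of 0.1, 0.5 and 5, other filters and scalings, protein-coding genes only and a 2-fold call; the filter of 20 reads and scaling to all assigned reads were added after the data were seen. Recovery of simulated differences was tested, but its result is not given here and no statement rests on it. Python 3.11.15, numpy 2.4.6, pandas 2.3.3, scipy 1.17.1 and matplotlib 3.10.9 were used.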

Additional observations from a re-analysis of the deposited data

How the results depend on the processing

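The number of called genes depended on how low genes were treated. The 370 genes higher in knockdown 1 became 635 with a pseudocount of 0.1, 122 with 5, 882 with no filter, 144 with a mean of at least 5 FPKM, 108 among protein-coding genes, 116 at 2-fold and 166 with at least 20 reads. The 525 lower genes became 904, 99, 1024, 139, 226, 142 and 332 in the same order. The share of called genes that were higher in knockdown 1 was 41.3%, and 55.2% with a pseudocount of 5. The share of the higher genes with the control nearer knockdown 2 moved from 58.1% to 71.3% with a pseudocount of 5, 76.4% at 5 FPKM, 46.6% at 2-fold and 69.9% with at least 20 reads; that of the lower genes stayed within 10 points in all alternatives run. Against the control, knockdown 1 had 132 genes higher at 2-fold, and 1324 lower with a pseudocount of 0.1, 268 at 5 FPKM and 238 at 2-fold. Knockdown 2 had 581 higher with a pseudocount of 0.1, 143 at 5 FPKM and 87 at 2-fold, and 776, 130 and 142 lower. Called sterol genes numbered 9 with a pseudocount of 5 in place of 14. Of 499 medians of lists under alternatives, 487 lay within 0.1 of the reported one, 10 moved further and 2 of at least 0.1 in size changed sign: the MEKK3, ERK5, MEF2 and KLF list, to 0.16 at 5 FPKM, and the lymphoid markers, to 0.00326 with no filter. Medians smaller than 0.1 changed sign in 19 further cases. Of 328 values of single named genes, 294 moved by less than the counting error of the fold and 34 by more; TWIST1, which was near 0, changed sign in 1. The causes were not tested. Some alternatives could move these values only slightly. Median-of-ratios rescaling left the called genes at 370 and 525. Centring on the median took 1 small constant from every difference, and scaling to all assigned reads multiplied each library by 1 constant. These settings count among the 499 and the 328. Leaving out either knockdown library leaves no comparison. No paired analysis was possible because each side has 1 library and the control carries no replicate number. Counting error limits genes with few reads, where calls were most frequent.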

Other observations

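Mitochondrial tRNA genes specify the tRNAs of mitochondrial translation. The 14 genes on the plus strand of the reference had 203 reads in the control against 377 in knockdown 1 and 142 in knockdown 2, and the 8 on the minus strand had 3321, 3513 and 4293. MT-TH had 52, 110 and 24 reads and MT-TG 9, 29 and 11, while MT-TP had 598, 763 and 1102 and MT-TN 1264, 1259 and 1651. Most of the excess of the minus strand in knockdown 2 lay in MT-TP and MT-TN. Other genes of that strand did not share it: MT-TC had 1212, 1218 and 1281 reads, MT-TY 238, 263 and 257, MT-TE 7, 7 and 2, and MT-TQ 0, 3 and 0. The genes are 59 to 75 bases long, most have few reads, and it is not stated whether counting used strand.

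A few protein-coding genes had reads almost wholly in 1 library, taken as at least 8 reads there and at most 1 in each other; this was examined after the values were seen, and the genes lie outside the comparison or at its edge. ARC, an immediate early gene, had 12 reads in knockdown 1 and 1 in each other. In knockdown 2, ITGAL, a leukocyte integrin, had 23 reads against 1 in the control and 0 in knockdown 1, DUSP6, an ERK phosphatase, 14 against 1 and 1, RUNX3 11 against 0 and 0, and CD34 10 against 0 and 1. By that rule 4 protein-coding genes were found in knockdown 1, 6 in knockdown 2 and 11 in the control.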
